A study of Mus musculus with 6 samples.

Results

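Luteinizing hormone and follicle-stimulating hormone are made by the gonadotrophs of the anterior pituitary, and 7 genes that mark or govern these cells are described here across the pituitaries of male mice labelled HFD and RD. The genes are LHB and FSHB, which encode the hormone-specific beta subunits; GNRHR, the receptor for gonadotropin-releasing hormone; NR5A1, FOXL2 and FOXP2, which encode transcription factors; and SPP1, which encodes the secreted phosphoprotein osteopontin. They were picked by symbol, and each has 1 row among the 16736 rows of the deposited count table. All 7 passed the filter on low counts and are among the 13873 genes tested.

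Each group holds 3 libraries of poly(A)-selected RNA from the pituitary, so 6 in all, and every mouse was fasted for 16 h and then fed for 4 h before collection. The title of the series concerns obesity. The labels do not spell out HFD and RD, and they give no strain, age, length of feeding or number of glands behind a library. They do not state that the libraries of a group came from separate mice, so a p-value here weighs a difference against how far these libraries vary, some of which may be technical.

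A gonadotropin is a dimer of a beta subunit, which sets its identity, and the alpha subunit encoded by CGA, which thyrotropin shares. Pulses of gonadotropin-releasing hormone from the hypothalamus act on the receptor of the gonadotroph, a Gq-coupled receptor, and raise transcription of the subunit genes through kinase cascades and factors such as EGR1. NR5A1 (steroidogenic factor 1) acts on the promoters of LHB and GNRHR, FOXL2 acts on that of FSHB, and activin from the gland itself drives FSHB. FOXP2 and SPP1 transcripts have been found in gonadotrophs.

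Over the listed genes the libraries held 14185372 to 14384933 counts in the HFD group and 15702214 to 18111345 counts in the RD group. A gene is referred to as called where edgeR's quasi-likelihood test gave an adjusted p under 0.05 over all genes tested. By this rule 1453 genes (10.5%) were called, 814 of them higher (5.87%) and 639 lower (4.61%) in HFD. With library size as the only scaling 1546 were called, 72.5% of them higher against 56.0% with the TMM scaling used here. Without HFD replicate 2, 490 genes were called, and without HFD replicate 3, 431. In 32.5% of the genes tested the HFD and RD levels had no overlap. The tissue showed the markers of a whole gland: hormone genes of every anterior lobe cell type were present, as were 5 of 5 pituicyte markers of the posterior lobe, summed to 91.7 to 208.6 CPM in HFD and 167.2 to 271.3 CPM in RD. Of 4 somatotroph markers GH1, POU1F1 and PAPPA2 were called lower in HFD, and GHRHR was not called. The 4 summed to 37131 to 40213 CPM in HFD and 59767 to 72627 CPM in RD. Most of that sum was GH1 (mean 38005 CPM in HFD and 67336 CPM in RD). Of 4 lactotroph markers PRL and POU1F1, the latter in both sets, were called lower and ANGPT1 higher. These 4 summed to 10020 to 12643 CPM in HFD and 14271 to 15848 CPM in RD. Most of that sum was PRL (mean 10919 CPM in HFD and 14482 CPM in RD). Of 5 thyrotroph markers TSHB, CGA, TRHR and GATA2 were called higher (2752 to 3084 CPM in HFD and 2036 to 2298 CPM in RD). Most of that sum was CGA (mean 2406 CPM in HFD and 1861 CPM in RD), and CGA and GATA2 are also genes of gonadotrophs. Of 6 corticotroph and melanotroph markers only CRHR1 was called, higher (6150 to 14347 CPM in HFD and 5925 to 10034 CPM in RD). Most of that sum was POMC, at 5792, 13677 and 11155 CPM in HFD replicates 1, 2 and 3 and 9447, 5526 and 5537 CPM in RD replicates 1, 2 and 3. The part of such shifts in the results for the gonadotroph genes was not tested.

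With all 6 libraries, the called genes among the 7 divided by role. The beta subunit genes LHB and FSHB and the receptor gene GNRHR were called lower in HFD. The 3 transcription factor genes NR5A1, FOXL2 and FOXP2 were called higher, and SPP1 was not called. With 1 library left out, the call of LHB held in 0 of 6 fits, that of FOXL2 in 1 and that of NR5A1 in 2. The division did not extend to the alpha subunit gene CGA, called higher. Nor did it extend to 12 of 15 other factors of the lineage and the gonadotropin promoters, not called. The levels of HFD and RD libraries did not overlap for any of the 7, against the background of 32.5% given above. Over all genes tested 10.5% were called. Since the 7 genes were chosen with results of these data known, the count of 6 called genes is a description and not a test. In whole-gland RNA, fewer cells of a type and less RNA per cell cannot be told apart.

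**Figure D1:**
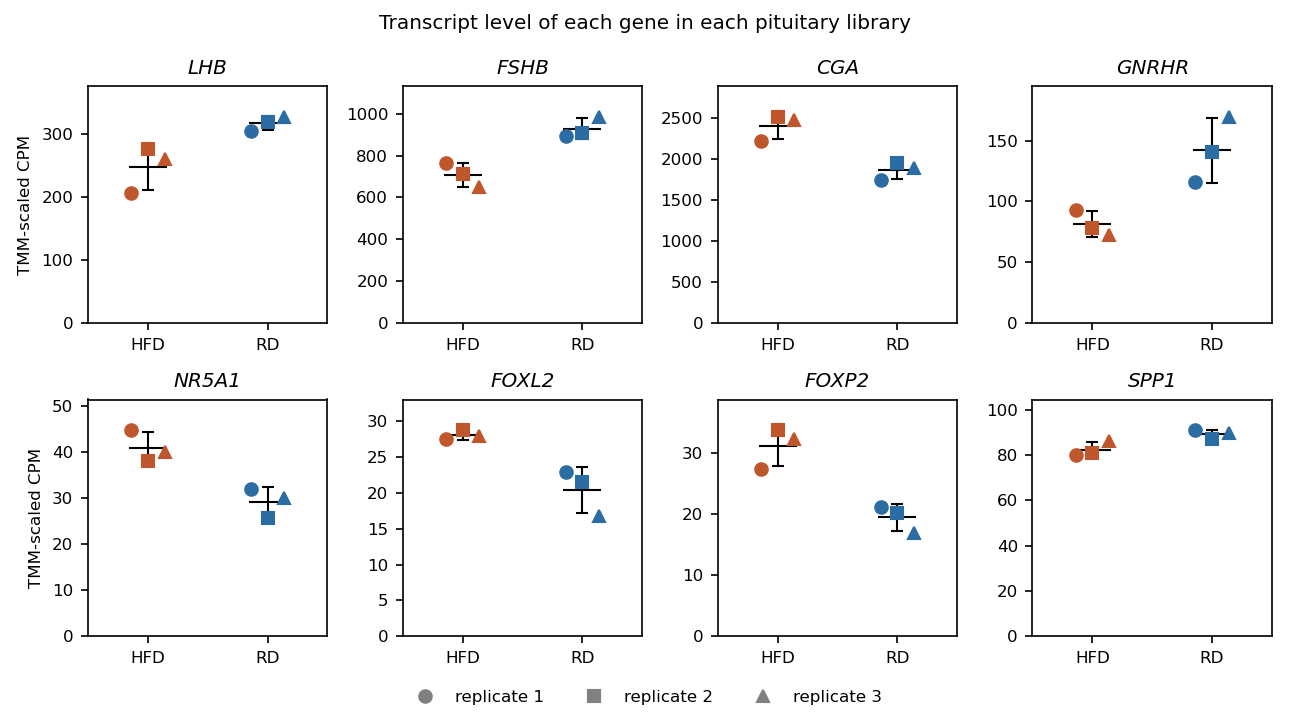
Transcript level of the 7 gonadotroph genes and of CGA in each library, as CPM (counts per 1000000 counts of TMM-scaled library size) (vertical axes, each from 0), for HFD (left) and RD (right); points are single libraries, with the mean as a long bar and the SD as whiskers (n = 3 per group). LHB, FSHB, GNRHR and SPP1 lie lower in every HFD library than in any RD library, and CGA, NR5A1, FOXL2 and FOXP2 lie higher.

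LHB encodes the beta subunit of luteinizing hormone, which drives testosterone synthesis in the testis. The gene lies on the plus strand of chromosome 7 of mm10 (45420820 to 45421897). It had 2975, 4062 and 3849 counts in HFD replicates 1, 2 and 3, and 4989, 4906 and 5671 counts in RD replicates 1, 2 and 3. Per 1000000 counts, with library sizes scaled by TMM factors (CPM), this came to 206.4, 275.9 and 260.2 CPM in HFD and 305.2, 319.4 and 327.7 CPM in RD. The 3 RD libraries were close together, and HFD replicate 1 stood apart on the low side. LHB averaged 247.5 ± 36.4 CPM in HFD and 317.5 ± 11.4 CPM in RD (SD, n = 3 each), a log2(HFD/RD) of -0.36 ± 0.10 (SE; adjusted p = 0.0462). This call was just inside the threshold: it was lost in each of the 6 fits with 1 library left out (adjusted p from 0.0517 to 0.115), with upper-quartile factors (0.0718) and with library size only (0.0904). The 3′ end of LHB overlaps that of RUVBL2, which lies on the opposite strand (45421760 to 45438096), and without stranded counting, on which the sources are silent, their reads there cannot be told apart. RUVBL2 stood at 32.1 ± 0.944 CPM in HFD and 33.5 ± 1.78 CPM in RD, well below the level of LHB.

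FSHB encodes the beta subunit of follicle-stimulating hormone, which acts on Sertoli cells in the male. It lies on the minus strand of chromosome 2 (107056140 to 107059656). Its level was 763.0, 709.9 and 650.4 CPM in HFD and 891.9, 909.0 and 985.2 CPM in RD, in the order of the replicates. The lowest RD library stood well clear of the highest HFD library. FSHB averaged 707.8 ± 56.3 CPM in HFD and 928.7 ± 49.7 CPM in RD, a log2 change of -0.39 ± 0.07 (adjusted p = 0.0092). The call was lost without HFD replicate 2 (0.0508) or HFD replicate 3 (0.0522) and held in the other 4 leave-one-out fits.

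The stretches before the starts of LHB and FSHB are shown because both genes fell, and because NR5A1 and EGR1 are known to act on LHB and FOXL2 on FSHB. They are RefSeq sequences of build GRCm38.p6, the 250 bases that end at the base before the annotated start, written 5′ to 3′ on the strand of the gene. LHB is at chr7:45420696-45420945 (plus strand) and FSHB at chr2:107059652-107059901 (minus strand). Capitals mark matches, on either strand, to any of 5 short motifs: AAGGTCA for NR5A1, CCCCCNC for EGR1, TAATCC for PITX factors, TAAACA for forkhead factors and TGANTCA for AP-1.
LHB: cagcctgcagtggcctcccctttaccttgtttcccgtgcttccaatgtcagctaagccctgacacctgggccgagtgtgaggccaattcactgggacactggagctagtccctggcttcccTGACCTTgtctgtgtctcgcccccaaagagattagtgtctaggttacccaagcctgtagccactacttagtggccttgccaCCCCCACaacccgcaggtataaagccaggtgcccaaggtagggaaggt
FSHB: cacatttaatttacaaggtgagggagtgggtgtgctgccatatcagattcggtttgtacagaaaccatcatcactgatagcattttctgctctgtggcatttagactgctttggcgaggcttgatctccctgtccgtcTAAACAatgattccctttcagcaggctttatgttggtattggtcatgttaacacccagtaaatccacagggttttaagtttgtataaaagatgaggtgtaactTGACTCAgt

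In LHB the NR5A1 motif lies 129 to 123 bases before the start, on the opposite strand, and the EGR1 motif 48 to 42 bases before it. In FSHB the forkhead motif lies 112 to 107 bases before the start and the AP-1 motif 9 to 3 bases before it. Among 32851 upstream windows of the same length, 4.08% held the NR5A1 motif, 28.0% the EGR1 motif, 6.25% the PITX motif, 12% the forkhead motif and 6.75% the AP-1 motif. No match to the 5 motifs was found in the windows of GNRHR, FOXL2 and CGA. SPP1 has 2 annotated starts in the table, and 1 of its windows held 1 EGR1 match. A match describes letters in the window and not a bound site. Only exact matches were marked, with N as any base, so sites of these factors that are spelled otherwise stay in lower case. Windows were available for 5 of the 7 genes. GENCODE places some starts elsewhere than RefSeq. Its model of LHB begins within the window, at 45420820, inside the NR5A1 match, so the EGR1 match lies within that gene model. Its model of FSHB begins at 107059656, inside the AP-1 match. The FOXL2 window and the SPP1 window with the match lie wholly within the GENCODE genes, so such windows are in part transcribed in that annotation.

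CGA, the alpha subunit gene that both gonadotropins and thyrotropin use, moved opposite to the beta subunit genes. It had 2223, 2514 and 2482 CPM in HFD and 1741, 1953 and 1888 CPM in RD, with no overlap, a log2 change of 0.37 ± 0.07 (adjusted p = 0.0082). Without HFD replicate 2 (0.0525) or HFD replicate 3 (0.0549) CGA was not called. CGA is shared with thyrotrophs, whose own hormone gene TSHB stood at 286.9 ± 6.64 CPM in HFD and 139.2 ± 38.9 CPM in RD (log2 change 1.04 ± 0.17). How much of the level of CGA came from each cell type was not tested.

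GNRHR showed the largest change of the 7. The receptor gene lies on the minus strand of chromosome 5 (86180754 to 86197901). It had 1345, 1148 and 1071 counts in HFD and 1898, 2166 and 2934 counts in RD, which is 93.3, 78.0 and 72.4 CPM in HFD and 116.1, 141.0 and 169.6 CPM in RD. The RD libraries were spread widely, with replicate 3 highest, and the lowest of them lay above the highest HFD library. GNRHR averaged 81.2 ± 10.8 CPM in HFD and 142.2 ± 26.7 CPM in RD, so the HFD level was 0.571 of the RD level (log2 change -0.81 ± 0.14, adjusted p = 0.0074). The call held with each library left out (adjusted p up to 0.0490), which was so for 365 genes, or 2.63% of all tested. Without RD replicate 3 the log2 change was -0.67 and without RD replicate 1 it was -0.94.

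NR5A1 encodes steroidogenic factor 1, a nuclear receptor of gonadotrophs and steroid-making cells. It lies on the minus strand of chromosome 2 (38692656 to 38714542). It had 44.8, 38.2 and 40.1 CPM in HFD and 31.9, 25.7 and 30.1 CPM in RD. HFD replicate 1 was the highest library and RD replicate 2 the lowest, with no overlap between the groups. The means were 41.0 ± 3.38 CPM in HFD and 29.2 ± 3.23 CPM in RD, a 1.4-fold rise (log2 change 0.49 ± 0.11, adjusted p = 0.0217). The call was lost without RD replicate 2 (0.0658), HFD replicate 1 (0.0837), HFD replicate 2 (0.0561) or HFD replicate 3 (0.0814).

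FOXL2 is a forkhead factor that works with activin-regulated SMAD proteins on FSHB. It lies on the plus strand of chromosome 9 (98955288 to 98958543). Both FOXL2 and NR5A1 overlap an annotated RNA of the opposite strand with no row in the table (Foxl2os and Nr5a1os), as does CGA (Platr9). The gene had 27.4, 28.7 and 27.8 CPM in HFD, within a narrow range, and 22.8, 21.5 and 16.8 CPM in RD, where replicate 3 was low. The groups did not overlap. FOXL2 averaged 28.0 ± 0.637 CPM in HFD and 20.4 ± 3.19 CPM in RD, a log2 change of 0.46 ± 0.13 (adjusted p = 0.0461). This call too was just inside the threshold. It held without RD replicate 1 (0.0348) but in none of the other 5 leave-one-out fits (adjusted p from 0.0600 to 0.149), nor with the trend on GC content removed (0.0817).

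FOXP2, a second forkhead gene, had the largest rise of the 7. It lies on the plus strand of chromosome 6 (14901349 to 15441977). Its counts were 395, 496 and 478 in HFD and 345, 311 and 294 in RD, or 27.4, 33.7 and 32.3 CPM in HFD and 21.1, 20.2 and 17.0 CPM in RD. HFD replicate 1 was the lowest of its group, and RD replicate 3 was the lowest of all 6 libraries. The means were 31.1 ± 3.30 CPM in HFD and 19.4 ± 2.17 CPM in RD, a 1.60-fold rise (log2 change 0.68 ± 0.12, adjusted p = 0.0095). Without HFD replicate 2 (0.0548) or HFD replicate 3 (0.0569) the gene was not called.

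SPP1 lies on the plus strand of chromosome 5 (104435118 to 104441050) and had the smallest change of the 7. It stood at 80.1, 80.6 and 86.2 CPM in HFD and 90.8, 87.0 and 89.5 CPM in RD. The groups did not overlap, but the gap between the highest HFD and the lowest RD library was small. The means were 82.3 ± 3.40 CPM in HFD and 89.1 ± 1.94 CPM in RD, a log2 change of -0.11 ± 0.07 that did not pass the test (adjusted p = 0.34). Osteopontin is also made by macrophages and bone cells. The 9 macrophage markers summed to 87.3 to 108.6 CPM in HFD and 79.8 to 107.0 CPM in RD, and 0 of the 9 were called. Of the 6 bone markers the defining genes BGLAP, IBSP and SP7 averaged 0.114, 0.0463 and 0.113 CPM in HFD and 0.0651, 0.116 and 0.272 CPM in RD. DMP1, of osteocytes, was at 0 in all HFD libraries and at 0.306 to 0.391 CPM in RD. The other 2 bone markers were PHEX, called higher with all 6 libraries but in 0 leave-one-out fits (10.3 ± 0.723 CPM in HFD and 6.63 ± 0.548 CPM in RD), and ALPL, not called.

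**Figure D2:**
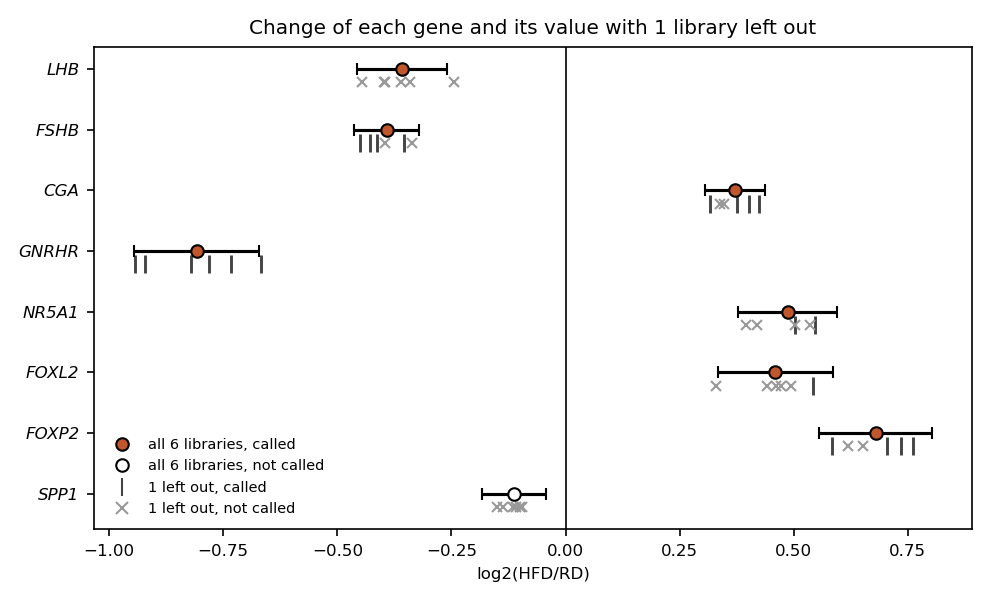
Log2 change (HFD over RD, horizontal axis) of the 7 gonadotroph genes and CGA from all 6 libraries (circles, whiskers are the SE; filled where called) and from each fit with 1 library left out (small marks below; bars where called, crosses where not). GNRHR was called in all 6 of those fits and LHB in 0, and no gene changed direction.

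Per kb of annotated exon, the order of the levels was CGA, FSHB, LHB, SPP1, GNRHR, NR5A1, FOXL2 and FOXP2 in both groups. CGA had 2971 ± 197 CPM per kb in HFD and 2297 ± 134 CPM per kb in RD. FSHB had 442.4 ± 35.2 CPM per kb in HFD and 580.5 ± 31.0 CPM per kb in RD, and LHB had 365.0 ± 53.7 CPM per kb in HFD and 468.2 ± 16.8 CPM per kb in RD. The per-kb levels of LHB and FSHB met in the HFD group, where LHB reached 406.9 CPM per kb in replicate 2 and FSHB 406.5 CPM per kb in replicate 3, and did not meet in RD. SPP1 (49.96 ± 2.06 CPM per kb in HFD and 54.1 ± 1.18 in RD) and GNRHR (25.4 ± 3.39 CPM per kb in HFD and 44.5 ± 8.36 in RD) were apart in HFD and met in RD. The factor genes were the least abundant, at 12.9 ± 1.06 CPM per kb for NR5A1, 8.59 ± 0.196 for FOXL2 and 3.21 ± 0.341 for FOXP2 in HFD, and 9.19 ± 1.02, 6.25 ± 0.978 and 2.01 ± 0.224 CPM per kb in RD. These levels depend on the exon length taken from the annotation, which is 9694 bases for FOXP2 and 678 bases for LHB.

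Ratios of read counts within a library do not depend on how libraries are scaled. They were compared between the groups for 5 pairs with an exact two-sided permutation test, whose smallest p with 3 libraries against 3 is 0.1. The ratio of LHB to FSHB was 0.271, 0.389 and 0.40 in HFD and 0.342, 0.351 and 0.333 in RD. It overlapped between the groups, with HFD replicate 1 below and the other HFD libraries above every RD library (exact p = 1.0, n = 3 each). Both beta subunit genes were lower relative to CGA in every HFD library than in any RD library. The count of FSHB was 0.343, 0.282 and 0.262 of that of CGA in HFD and 0.512, 0.465 and 0.522 of it in RD, a log2 difference of -0.76. LHB was 0.0928, 0.110 and 0.105 of CGA in HFD and 0.175, 0.164 and 0.174 of it in RD, a log2 difference of -0.74. The ratio of GNRHR to NR5A1 differed most, at 2.09, 2.04 and 1.81 in HFD and 3.64, 5.50 and 5.63 in RD, a log2 difference of -1.29. These 3 ratios did not overlap between the groups and reached the smallest p (exact p = 0.1 each, adjusted p over the 5 ratios = 0.167, n = 3 each). Each sets a gene lower in every HFD library than in any RD library against a gene higher in every one. Their lack of overlap and their exact p therefore followed from the levels given above and are no further evidence. The ratio of GNRHR to LHB was 0.452, 0.283 and 0.278 in HFD and 0.380, 0.442 and 0.517 in RD, where HFD replicate 1 lay among the RD libraries (log2 difference -0.43, exact p = 0.3, adjusted p = 0.375, n = 3 each). Without HFD replicate 1 that difference was -0.66.

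**Figure D3:**
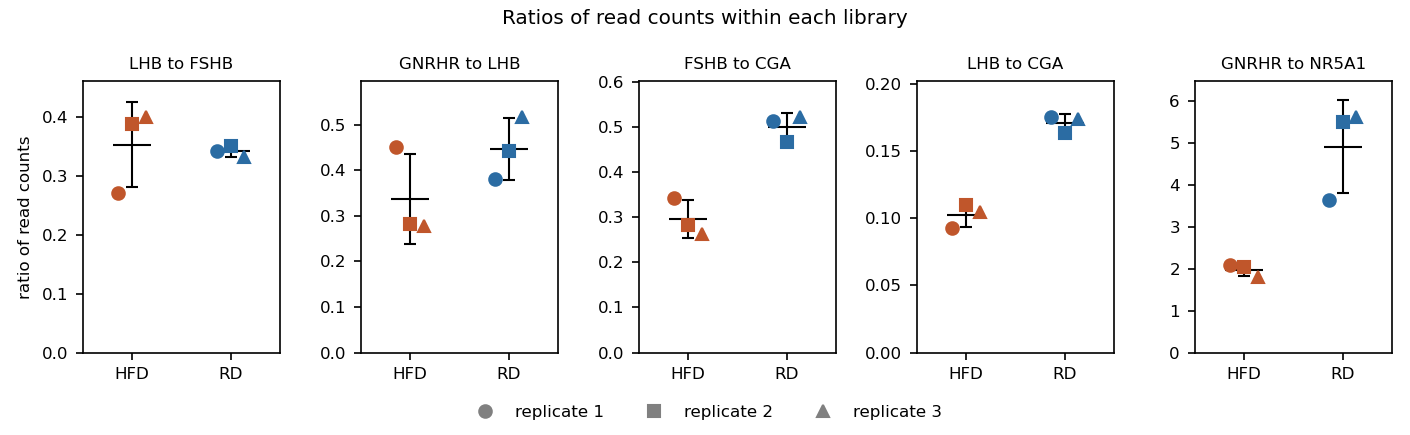
Ratio of the read counts of 2 genes within each library (vertical axes, each from 0) for HFD (left) and RD (right); points are single libraries, with the mean as a long bar and the SD as whiskers (n = 3 per group). The ratio of LHB to FSHB overlapped between the groups, while both genes were lower relative to CGA, and GNRHR lower relative to NR5A1, in every HFD library than in any RD library.

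Within the groups the 7 genes also took different places. RD replicate 3 held the highest level of LHB, FSHB and GNRHR and the lowest level of FOXL2 and FOXP2 among all 6 libraries. HFD replicate 1 held the lowest level of LHB and of SPP1, and within its group also the lowest of CGA, FOXL2 and FOXP2, but the highest of FSHB, GNRHR and NR5A1.

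The profile of each called gene over the 6 libraries was set against those of 12781 other genes by the root mean square difference of log2 CPM after each gene was centred on its own mean. Such a difference holds the change between the groups as well as the spread within them, and the closest of many genes will be close in part because so many were compared. Among the closest to LHB were PRICKLE3 (0.041) and IAH1 (0.061), and neither was called. For FSHB they were RBM28 (0.027), SELENOI (0.030) and ZCCHC8 (0.035), all called lower. For GNRHR they were ICAM5 (0.036), the GABA-A receptor subunit gene GABRE (0.076) and the somatotroph marker PAPPA2 (0.079), all called lower. For NR5A1 they were MIAT (0.043), PCDHB17P (0.047) and SFXN5 (0.056), of which SFXN5 was not called. For FOXL2 they were HDDC2 (0.035, not called), MMP16 (0.039) and AGTRAP (0.045). For FOXP2 they were LGALS3BP (0.056), FAM229B (0.064) and LZTS1 (0.065). The closest pair among the 7 genes was FOXL2 and FOXP2 (0.134). FOXL2 ranked 150 among the genes nearest to FOXP2, and FOXP2 ranked 494 among those nearest to FOXL2. LHB and FSHB were farther from each other (0.183). FSHB ranked 1754 among the genes nearest to LHB, and LHB ranked 3113 among those nearest to FSHB. SPP1, not called, was nearer to LHB (0.179) and to FSHB (0.178) than these were to each other.

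Around these 7 genes, 98 further genes in 5 lists were read from the same fit: other factors of the gonadotroph lineage and the gonadotropin promoters, signalling below the GnRH receptor, the activin system, receptors for feedback and metabolic signals, and assembly and secretion of the hormones. Of the 95 tested, 11 were called higher and 2 lower (13.7%, against 10.5% of all genes tested), and the median log2 change was 0.03, against -0.002 over all genes tested.

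The first list held 15 other factors of the lineage and the gonadotropin promoters. Of these, 3 were called higher, 0 lower, and 12 did not pass (median log2 change 0.13). EGR1, the immediate early factor that carries the signal of the GnRH receptor to LHB, had 929.3, 461.2 and 796.2 CPM in HFD and 404.8, 121.3 and 212.3 CPM in RD. The groups did not overlap, but each spanned a wide range. EGR1 was 2.96-fold higher in HFD (log2 change 1.57 ± 0.38, adjusted p = 0.0298). Leaving out HFD replicate 1 (0.0939) or HFD replicate 3 (0.115) ended the call. GATA2, a factor of gonadotrophs and thyrotrophs, averaged 88.1 ± 11.9 CPM in HFD and 59.6 ± 11.8 CPM in RD (log2 change 0.56 ± 0.15). The LIM factor gene LHX3 was at 119.8 ± 4.8 CPM in HFD and 96.6 ± 6.85 CPM in RD (0.31 ± 0.08). The call of LHX3 was lost with the trend on GC content removed (adjusted p = 0.0520). It was lost in 4 of 6 leave-one-out fits, and that of GATA2 in 3. The most abundant of those not called were CTNNB1 (beta-catenin; log2 change -0.14 ± 0.05) and SP1 (-0.03 ± 0.07).

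Of 37 genes of GnRH receptor signalling, 3 were called higher, 1 lower, and 33 did not pass (median log2 change 0.03). The genes called higher were the transcription factor genes EGR1, ATF3 (9.58 ± 2.99 CPM in HFD and 3.76 ± 1.58 CPM in RD, log2 change 1.34 ± 0.32) and JUNB (295.8 ± 105 CPM in HFD and 107.4 ± 61.4 CPM in RD, 1.46 ± 0.36). NAB1, a co-repressor that binds EGR proteins, was lower (46.0 ± 4.93 CPM in HFD and 60.1 ± 5.13 CPM in RD, -0.39 ± 0.10). Immediate early genes respond in many cell types, and these values are those of the whole gland. JUNB was not called by DESeq2 (adjusted p = 0.0619) or in 4 of 6 leave-one-out fits, and ATF3 not in 3 of them. NAB1 was not called with library size only or in 5 of the 6 fits (adjusted p up to 0.165). FOS stood at 498.1, 195.7 and 329.9 CPM in HFD and 363.7, 86.5 and 132.3 CPM in RD, which overlapped, and was not called (log2 change 0.81 ± 0.47, adjusted p = 0.31). Without RD replicate 1 its log2 change was 1.63 and it was called (adjusted p = 0.0165). The other immediate early and feedback genes of the list, FOSB, JUN, JUND, EGR2, DUSP1, DUSP6, KLF4, NAB2 and RGS2, were not called. Their adjusted p ran from 0.073 for KLF4 to 0.975 for JUND. Their log2 changes were 0.93 (EGR2), 0.88 (DUSP1), 0.82 (FOSB), 0.70 (KLF4), 0.50 (JUN), 0.10 (NAB2), 0.09 (RGS2), 0.01 (JUND) and -0.15 (DUSP6). They are named here after their values were seen. The inositol trisphosphate receptor gene ITPR1, the most abundant of the list among those not called, had a log2 change of -0.01 ± 0.06.

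Of 18 tested genes of the activin, inhibin and follistatin system, 2 were called higher, 1 lower, and 15 did not pass (median log2 change -0.07). ACVR1C, the type I receptor ALK7 of the activin family, had 26.4, 23.7 and 29.0 CPM in HFD and 39.8, 47.8 and 39.5 CPM in RD. It was lower in every HFD library (log2 change -0.68 ± 0.11, adjusted p = 0.0066) and was called with each library left out (adjusted p up to 0.0403). INHA and INHBB, but not the third subunit gene INHBA, were called higher. INHA, the alpha subunit specific to inhibins, which lower FSHB, was at 49.3 ± 2.09 CPM in HFD and 37.8 ± 3.55 CPM in RD (0.38 ± 0.09, adjusted p = 0.0302). INHBB, the beta B subunit of activin B and inhibin B, was at 48.4 ± 3.73 CPM in HFD and 36.1 ± 5.28 CPM in RD (0.42 ± 0.11, adjusted p = 0.0452). INHBA, the beta A subunit gene, overlapped between the groups and did not pass (0.39 ± 0.21, adjusted p = 0.27). The calls of INHA and INHBB were lost with the trend on GC content removed (adjusted p up to 0.0747), that of INHA also in 4 and that of INHBB in 5 of 6 leave-one-out fits. FST, the activin-binding follistatin, was not tested, at 0.0451 CPM in HFD and 0.243 CPM in RD. IGSF1 (0.21 ± 0.07, adjusted p = 0.076) and the inhibin co-receptor gene TGFBR3 (-0.25 ± 0.07, adjusted p = 0.056) did not pass. TGFBR3 was called by DESeq2 (0.0287) and without RD replicate 1 (0.0397) or RD replicate 3 (0.0366), and IGSF1 with upper-quartile factors (0.0389) and with library size only (0.0227).

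Of 13 tested receptors and enzymes of feedback and metabolic signals, 2 were called higher, 0 lower, and 11 did not pass (median log2 change -0.07). ADCYAP1R1, the PACAP receptor, had 72.4, 66.4 and 81.9 CPM in HFD and 49.4, 53.4 and 43.3 CPM in RD, a 1.51-fold rise (log2 change 0.60 ± 0.11, adjusted p = 0.0088). It was not called without HFD replicate 3 (0.0514). The oestrogen receptor gene ESR1 (0.06 ± 0.07) and IGF1R (-0.18 ± 0.06, adjusted p = 0.075) did not pass. IGF1R was called without RD replicate 3 (0.0244). ESR2 and the PACAP gene ADCYAP1 were too low to be tested.

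Of 13 genes of gonadotropin assembly and secretion, 2 were called higher, 0 lower, and 11 did not pass (median log2 change 0.14). They were CGA and B4GALNT3, a transferase that adds the N-acetylgalactosamine later sulfated on luteinizing hormone. B4GALNT3 had 110.8, 114.6 and 101.0 CPM in HFD and 45.1, 82.9 and 31.8 CPM in RD, so the RD libraries differed among themselves far more than the HFD libraries did (log2 change 1.03 ± 0.27, adjusted p = 0.0387). It was not called by DESeq2, with the trend on GC content removed, or in 4 of 6 leave-one-out fits (adjusted p up to 0.126). The granin genes CHGB (0.09 ± 0.06) and SCG2 (0.14 ± 0.05), cargo of the secretory granules, did not pass. SCG2 was called with library size only (0.0226).

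**Figure D4:**
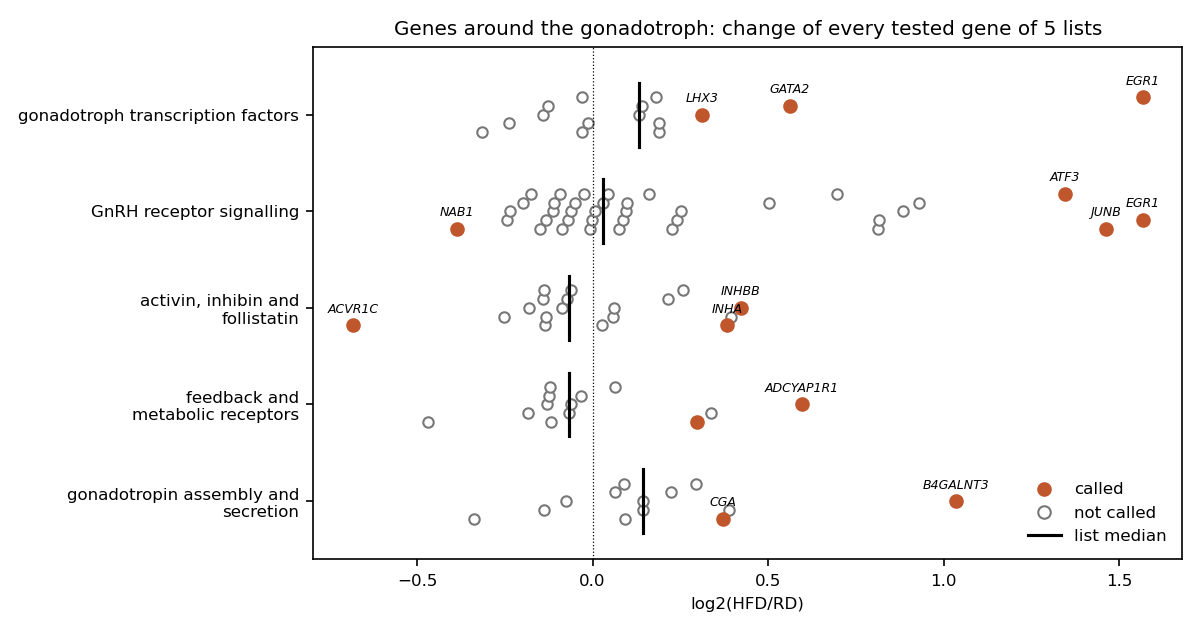
Log2 change (HFD over RD, horizontal axis) of every tested gene in 5 lists around the gonadotroph; filled circles are called genes, named where the text describes them, open circles are not called, and the vertical bar is the median of the list. The list medians lie between -0.07 and 0.14, with EGR1, JUNB and ATF3 far to the right and ACVR1C farthest to the left.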

How the data were processed

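The authors deposited 1 table of raw counts, whole numbers of reads for each gene in 6 libraries. The build, per the submitters' processing notes, was mm10. Aligner, counter, strand setting and annotation: not given in the sources used here. Of the 16736 rows, 96.6% matched 1 gene of GENCODE M21 (GRCm38) by symbol, apart from case. Mouse genes without such a row are outside the totals. In each library 64.0% to 67.0% of counts from 1 to 10 were even, against 48.9% to 50.5% above 200, so both mates of a pair may have been counted, and no counting intervals are given.

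The two-sided quasi-likelihood test of edgeR 4.0.16 (R 4.3.3) compared HFD with RD after TMM scaling and a filter (minimum count 10, minimum total 15). Adjusted p-values are Benjamini-Hochberg values over 13873 genes. Each SE was the absolute log2 change over the root of F. CPM are scaled by TMM factors (1.02 to 1.03 in HFD, 0.956 to 0.996 in RD). DESeq2 1.42.0 and limma 3.58.1 (voom), other scalings and filters, halved counts, GC content, a replicate block and each library left out were alternatives. Replicates of a group differed beyond sampling noise (chi-square per degree of freedom 4.47 to 21.0).

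Promoter sequences and motif matches were read from RefSeq windows. The members, lists, motifs and the rule for named genes (the 7 members; CGA; per list up to 6 called genes with the smallest p and the 2 most abundant not called; the 3 closest profiles among genes averaging 1 or more in log2 CPM) were chosen with earlier results of these data known. Marker genes, RUVBL2 and, in the list paragraphs, FST, INHBA, TGFBR3L, ESR2 and ADCYAP1 are named beside that rule. Of the genes this rule names, 2 are not reported here.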

Additional observations from a re-analysis of the deposited data

How the results depend on the processing

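No member changed direction in any setting tried. All 7 members kept their call or lack of one with DESeq2 size factors, scaling without the hormone genes, no filter, the strict filter, DESeq2, limma-voom and halved counts. LHB had log2 changes of -0.33 with upper-quartile factors and -0.29 with library size only, where it was not called. FOXL2 was not called with the GC trend removed (0.40). At an adjusted p of 0.01, 3 members were called, without LHB (-0.36), NR5A1 (0.49) and FOXL2 (0.46), and 412 genes in all (228 higher, 184 lower). With library size only 425 genes were lower in HFD, against 639. With a library left out, 1 to 5 members and 431 to 1523 genes (243 to 813 higher, 188 to 710 lower) were called, the fewest members without HFD replicate 2 or 3, and log2 changes ranged from -0.45 to -0.25 for LHB, -0.45 to -0.34 for FSHB, 0.40 to 0.55 for NR5A1, 0.33 to 0.54 for FOXL2 and 0.58 to 0.76 for FOXP2. The difference in the log2 ratio of LHB to FSHB ranged from -0.077 to 0.21 and so had no stable sign. Of the other named genes, only SP1 and ITPR1, never called, changed sign: SP1 to 0.0013 and ITPR1 to 0.024 with upper-quartile factors, 0.038 and 0.060 with library size only, and from -0.071 to 0.0097 and -0.044 to 0.016 with a library left out.

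The replicate numbers are not shown to pair libraries: deviations of same-numbered libraries correlated at -0.127, 0.00371 and -0.0972 over genes, and not every library correlated best with its own number. In both groups EGR1, JUNB, FOS, FOSB, JUN, DUSP1 and KLF4 were highest in replicate 1 and lowest in replicate 2. ATF3, EGR2, JUND, DUSP6, NAB2 and RGS2 did not keep that order in both groups, and its cause was not tested. With the replicate number as a block 808 genes were called (473 higher, 335 lower) and 5 members, without FOXL2 (0.47, adjusted p = 0.0775). Among the other named pathway genes, the block ended the calls of LHX3 (0.0597), GATA2 (0.0753), NAB1 (0.0937) and INHA (0.0550), given as adjusted p, and FOS was called (0.98, adjusted p = 0.0116).

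The counts of the lists moved with single libraries. With 1 library left out, the number called higher ranged from 0 to 3 for lineage factors (3 with all libraries), 0 to 6 for GnRH signalling (3), and 0 to 2 for each of the activin, feedback and assembly lists (2 each). The number called lower ranged from 1 to 2 for the activin list (1) and from 0 to 1 for GnRH signalling (1), feedback (0) and assembly (0). Higher counts were 5, 4 and 4 for GnRH signalling, activin and assembly with library size only, 6 and 1 for GnRH signalling and lineage factors with the block, and 0 for the activin list with the GC trend removed. The cause of these shifts was not tested.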
